A study of Mus musculus with 9 samples.

Results

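The genes described here drive DNA replication and mitosis, and their transcripts are the usual measure of how many cells of a population are dividing. They were 40 named genes, found by symbol as 40 of the 59445 features of the expression table, and were divided by role into 12 DNA replication genes, 25 mitosis genes and 3 genes of chromatin and tubulin that non-dividing cells use as well (Stmn1, Hmgb2 and Tubb5). The RNA came from F4/80+ CD11b+ liver macrophages, sorted by flow cytometry. The mice were C57BL/6 males that had received the liver toxin carbon tetrachloride (CCl4, 1 intraperitoneal dose, labelled as 0.6 mg/kg) 24 hours earlier. The control group was MAGL fl/fl (4 libraries, S1, S3, S4 and S5, all 11 weeks old), labelled as wild type. The other group was MAGL Mye-/- (5 libraries, S8 to S12, of which S9, S10 and S11 were from 10-week-old and S8 and S12 from 11-week-old mice). MAGL is monoacylglycerol lipase, which splits the endocannabinoid 2-arachidonoylglycerol, and Mye-/- is taken here only as the label. The promoter that drives the deletion, its cell specificity and the share of cells deleted are not given in the sources used here. All mice received CCl4, so no library shows the uninjured liver.

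Cell division is switched on in order. Cyclin E and its kinase start S phase, the MCM complex unwinds DNA, PCNA clamps the polymerases to it, and ribonucleotide reductase, thymidylate synthase and thymidine kinase supply nucleotides. Cyclin B with CDK1 then starts mitosis, Aurora and Polo kinases and kinesin motors build and use the spindle, and the anaphase-promoting complex (APC/C) ends it by destroying cyclins. Replication genes are classically controlled by E2F factors, and mitosis genes by the MuvB complex through the cell cycle homology region together with NF-Y at CCAAT boxes. In liver injury, macrophage numbers can be restored by local division as well as by recruited monocytes.

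Library values are listed in the order S1, S3, S4, S5 for fl/fl, then S8 to S12 for Mye-/-. Levels are the authors' normalized reads, whose values are read counts divided by 1 factor per library. Library totals ran from 33383559 to 46489349 reads, and 14240 (fl/fl S4) to 16802 (Mye-/- S9) features had at least 1 read. Itgam, Adgre1, Csf1r and Cd68 were detected in all 9 libraries, and none of these 4 passed the test; the shared feature of Lyz2 and Lyz1 was at 308919 ± 83367 (SD) against 169027 ± 24893 (limma adjusted p = 0.218, DESeq2 adjusted p = 8.1e-05). Mgll, which encodes MAGL, was at 18.6, 0, 106 and 22.8 in fl/fl against 30.4, 46.6, 5.93, 42.7 and 0 in Mye-/-, too low to check the labels. Among erythroid markers, Slc4a1, Klf1 and Car1 were at 0 in all 9 libraries and Alas2 in 3 of them. Hba-a1, an alpha-globin, was at 5488 ± 4558 in fl/fl against 1179.8 ± 311 in Mye-/- without overlap (limma adjusted p = 0.0832, DESeq2 adjusted p = 0.0151).

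The promoters of these genes differed by role in the motifs they hold. RefSeq promoter windows (GRCm38.p6, from 250 bases before to 50 bases after the annotated start) were matched by symbol for 33 of the 40 genes, 10 of them replication genes and 21 mitosis genes. Both strands were searched for the CCAAT box (CCAAT), for the cell cycle homology region (TTTGAA or TTCGAA) and for E2F (TTTCCCGC, TTTGGCGC, TTTCGCGC or TTTGCCGC). These motifs can overlap each other, and a match is a description of the letters and not a bound site. A CCAAT box together with a cell cycle homology match stood in the windows of 17 of 21 mitosis genes (81%), 2 of 10 replication genes (20%) and 8.61% of the 27025 genes in the table. An E2F match stood in 4 of 10 replication genes (40%), 1 of 21 mitosis genes (4.76%, Cdk1) and 2.6% of all genes. The 4 replication genes with an E2F match were Mcm3, Mcm5, Mcm6 and Mcm7. The 250 bases before the start are printed for the MCM gene with the largest difference between genotypes (Mcm6), for the mitosis gene with the smallest p in each direction (Ube2c and Cdk1) and for Fbxo5, whose reads separated the genotypes. Capitals mark motif matches, in reading direction of the gene.
Mcm6 (chr1:128359706-128359955, minus strand): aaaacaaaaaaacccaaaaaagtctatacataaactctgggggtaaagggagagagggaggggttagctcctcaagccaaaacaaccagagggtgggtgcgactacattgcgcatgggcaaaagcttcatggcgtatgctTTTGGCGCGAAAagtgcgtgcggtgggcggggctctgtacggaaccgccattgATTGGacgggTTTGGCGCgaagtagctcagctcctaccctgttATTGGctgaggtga
Ube2c (chr2:164769679-164769928, plus strand): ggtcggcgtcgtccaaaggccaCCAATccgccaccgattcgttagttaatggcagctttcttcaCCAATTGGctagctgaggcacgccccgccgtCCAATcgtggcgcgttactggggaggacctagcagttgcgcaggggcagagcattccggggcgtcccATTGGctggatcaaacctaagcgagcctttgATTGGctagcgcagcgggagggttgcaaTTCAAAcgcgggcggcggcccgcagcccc
Cdk1 (chr10:69352913-69353162, minus strand): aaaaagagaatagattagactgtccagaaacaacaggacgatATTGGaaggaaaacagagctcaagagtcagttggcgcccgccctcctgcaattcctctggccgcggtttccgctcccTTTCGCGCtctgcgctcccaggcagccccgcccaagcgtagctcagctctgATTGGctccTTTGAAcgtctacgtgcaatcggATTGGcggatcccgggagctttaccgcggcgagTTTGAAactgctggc
Fbxo5 (chr10:5805466-5805715, minus strand): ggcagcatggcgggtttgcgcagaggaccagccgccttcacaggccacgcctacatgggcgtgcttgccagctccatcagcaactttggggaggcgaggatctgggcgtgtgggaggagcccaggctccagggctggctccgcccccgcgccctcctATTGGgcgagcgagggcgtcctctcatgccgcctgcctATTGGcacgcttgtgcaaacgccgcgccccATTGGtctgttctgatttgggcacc

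In these windows Mcm6 had 3 E2F matches, of which the first 2 overlap, and 2 CCAAT boxes. Ube2c had 6 CCAAT boxes, 2 of which overlap, and a cell cycle homology match 29 bases before the start. Cdk1 held all 3 kinds of motif, with its last cell cycle homology match 15 bases before the start. Fbxo5 had 3 CCAAT boxes, and its cell cycle homology match lies just after the start, outside the printed bases.

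**Figure D1:**
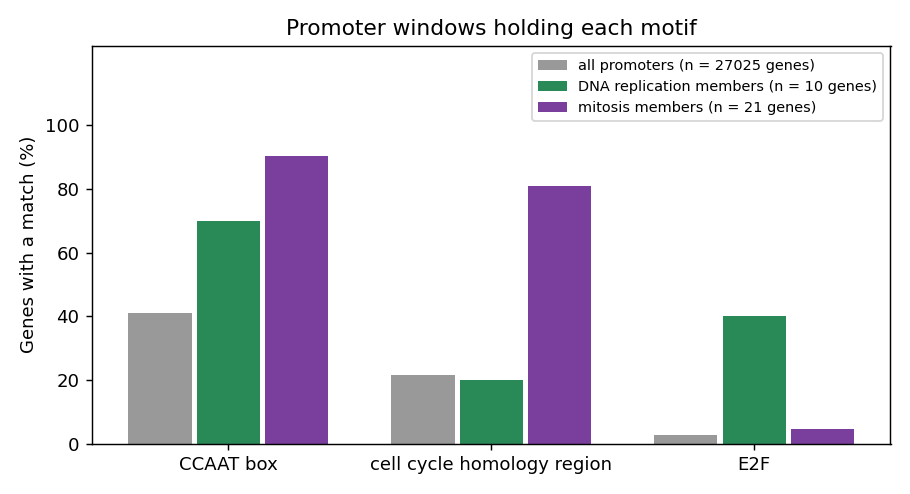
Share of genes (%) whose promoter window holds a CCAAT box, a cell cycle homology region or an E2F match, for all RefSeq promoters (27025 genes), replication members (10 genes) and mitosis members (21 genes). The mitosis bar stands at 81% for the cell cycle homology region and the replication bar at 40% for E2F.

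Many of the division genes had few reads in both genotypes. Of the 40, 18 had both group means under 100 normalized reads (4 replication and 14 mitosis genes), a mark used below as "low", and 23 were at 0 in at least 1 library. Among those tested it was 15 of 37 (40.5%), and among all features tested 26.4%. Per kilobase of the longest GENCODE M21 transcript, averaged over the 9 libraries, Pcna stood at 4097 normalized reads, Tubb5 at 3238 and Hmgb2 at 2766. Next came Mcm4 at 308, Stmn1 at 209.6, Aurkb at 192 and Mcm5 at 190.4 per kilobase. Mki67, the antigen of the Ki-67 stain, was at 11.9 per kilobase, Cdk1 at 10.0 and Ccnb1, cyclin B1, at 5.11. Pcna, Tubb5 and Hmgb2, which cells also use outside division, thus stood about an order of magnitude above the rest, apart from the feature of Plk1. That feature, at 2067 per kilobase of Plk1, also covers Dctn5, a dynactin subunit, so its reads cannot be assigned to Plk1.

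**Figure D2:**
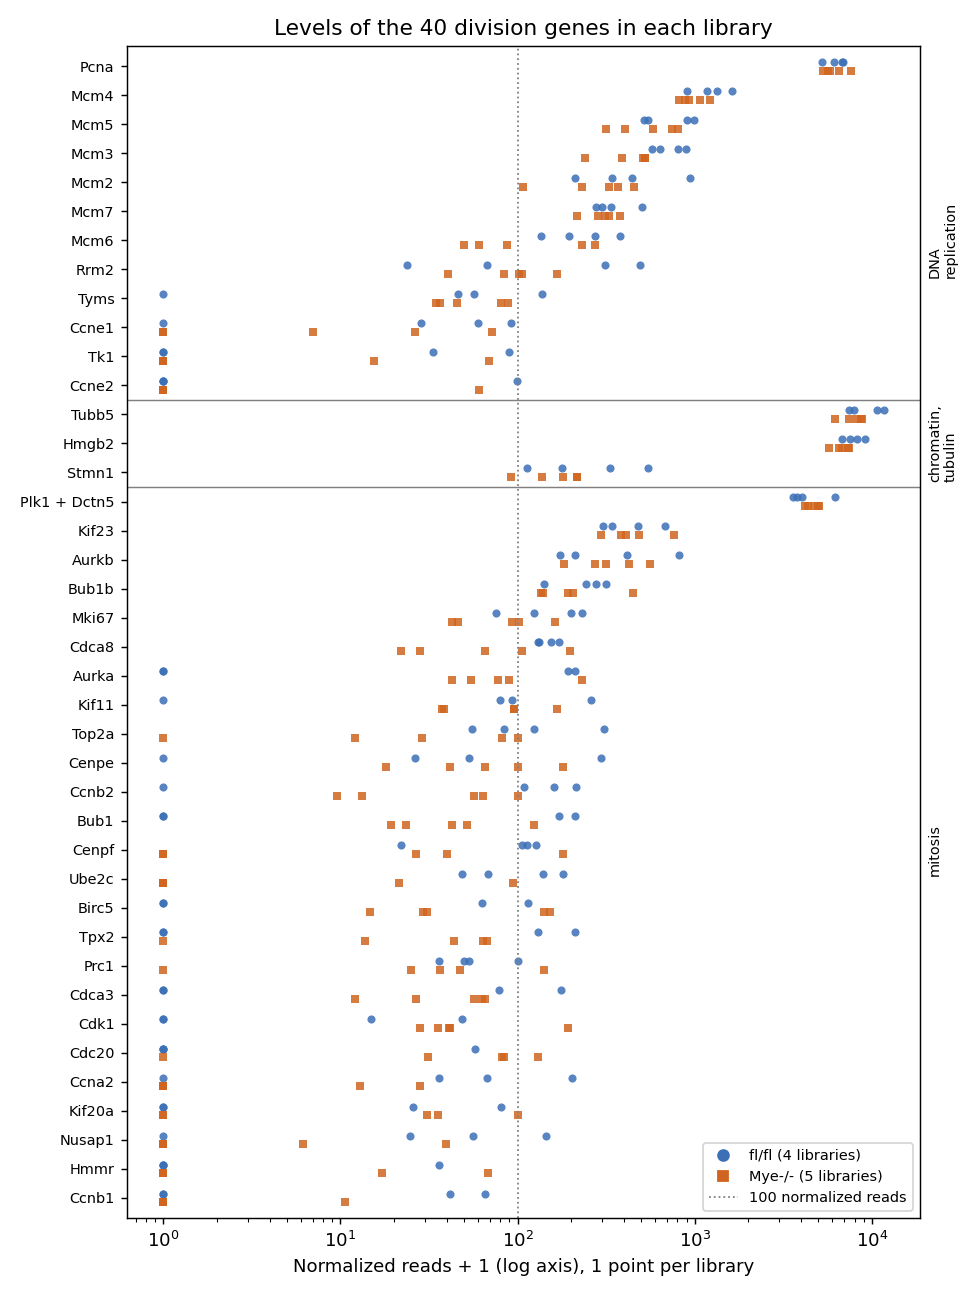
Normalized reads plus 1 (log axis) of each of the 40 genes in each library, with fl/fl as circles and Mye-/- as squares, ordered by mean level within each role. Pcna, Tubb5, Hmgb2 and the feature shared by Plk1 and Dctn5 stand apart at the right, and most mitosis genes lie around or left of 100 normalized reads with points at 0 (drawn at 1).

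No division gene passed the test between genotypes. Of the 40 genes, 37 were tested, that is, had at least 10 normalized reads in at least 4 libraries, and 0 passed at an adjusted p under 0.05 (limma on log2(normalized reads + 1), adjusted over all 15288 features tested, of which 0.0196% passed). At an unadjusted p under 0.05, 1 was higher (Cdk1) and 2 were lower (Mcm3 and Ube2c), against 6.38% higher and 4.13% lower among all features. The count of division genes passing was also 0 with edgeR (which called 0.0131% of features), with DESeq2 (which called 0.996% of the features it adjusted) and in all other settings tried. DESeq2 gave no adjusted p for Cdk1. In the model on log2(normalized reads + 1), 24 of the 37 were lower in Mye-/- and 13 higher, with a median log2 difference (Mye-/- minus fl/fl) of -0.25, against 45.4% lower and a median of 0.06 over all features. No difference in division between the genotypes was thus established. In sorted cells as a whole, even a lower level that passed the test could not tell fewer dividing cells from less RNA per dividing cell.

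**Figure D3:**
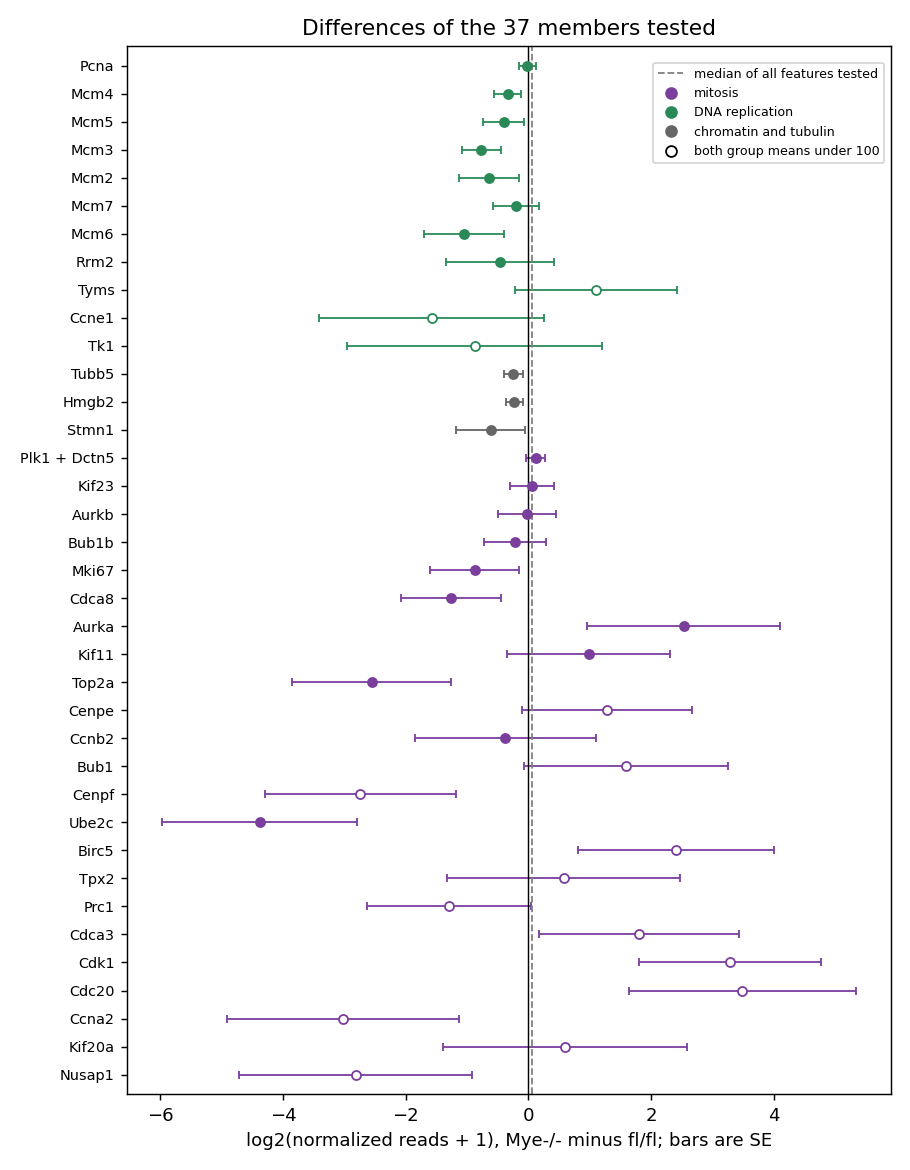
Difference in log2(normalized reads + 1), Mye-/- minus fl/fl, with its SE, for the 37 genes tested, coloured by role, with open circles where both group means were under 100 normalized reads. Among replication genes 10 of 11 points lie left of 0, whereas mitosis genes scatter to both sides with wide bars.

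Most replication genes had lower values in Mye-/- macrophages, without passing the test. Of 11 tested, 10 were lower, and the median log2 difference was -0.46, or -0.54 with only the 11-week-old mice (4 fl/fl and 2 Mye-/-). Among those mice the log2 differences of Mcm2 and Mcm5 were -0.11 and -0.05, against -0.64 and -0.40 with all libraries. The MCM genes, which encode the ring of the replicative helicase, were all lower in the mean, with adjusted p from 0.405 to 0.882 (limma), although the log2 difference of Mcm7 was above 0 in 2 of the alternatives. Mcm3 (chromosome 1, 20802968 to 20820312, mm10) was at 638, 800.0, 896 and 572 normalized reads in fl/fl against 238, 386, 513, 527 and 526 in Mye-/-. Every Mye-/- library lay below every fl/fl library, and Mye-/- S8 was lowest. Its log2 difference was -0.77 ± 0.31 (SE; limma unadjusted p = 0.0248, adjusted p = 0.405). It was -0.46 with a covariate for the count of features detected and -0.52 without fl/fl S3 and S4, settings made after the data were seen. Mcm3 was the only division gene whose groups did not overlap, whereas 1.6% of all features were separated in that direction and 1.7% in the other.

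The other MCM subunits overlapped between genotypes. Mcm4 was at 1614, 1176, 1341 and 906 in fl/fl against 878, 1075, 1223, 926 and 818 in Mye-/- (log2 difference -0.34 ± 0.22 SE). Mcm5 was at 984, 516, 903 and 546 in fl/fl against 578, 745, 314, 403 and 806 in Mye-/- (-0.40 ± 0.33 SE). For Mcm4 the highest library was fl/fl S1 and the lowest Mye-/- S12, and for Mcm5 they were fl/fl S1 and Mye-/- S10. Mcm2 was at 940.1, 442, 211 and 343 in fl/fl against 455, 229.8, 107, 367 and 326 in Mye-/- (-0.64 ± 0.49 SE), so that fl/fl S1 stood far above the rest. Without fl/fl S1 the log2 differences of Mcm2, Mcm4 and Mcm5 were -0.25, -0.21 and -0.24, and without Mye-/- S10 those of Mcm2 and Mcm5 were -0.32 and -0.21. Mcm6 ran from 135 to 377 in fl/fl and from 49.0 to 271 in Mye-/- (-1.05 ± 0.66 SE). Mcm7, which overlaps Ap4m1 on the opposite strand, ran from 275 to 502 and from 216 to 379 (-0.20 ± 0.38 SE). Ap4m1 was at 672 ± 159 and 1076 ± 444 (limma unadjusted p = 0.0423, adjusted p = 0.458), the opposite direction, and without strand its reads cannot be told apart from those of Mcm7 where they overlap. Levels per kilobase differed between subunits of the same ring, from 42.7 for Mcm6 to 308 for Mcm4.

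Summed over Mcm2 to Mcm7, libraries held 4748, 3462, 4230 and 2776 normalized reads in fl/fl. The Mye-/- libraries S8 to S12 held 2518, 2812, 2807, 2594 and 2922. The Mye-/- sums lay close together at the level of the lowest fl/fl library, while the fl/fl sums spread upward. Group means were 3804 ± 865 (SD, n = 4) and 2730.5 ± 168 (SD, n = 5). Several marker lists of other cell types also differed in level between the groups. Myeloid progenitor markers (8 genes, 5 tested, 2 higher and 3 lower) summed to 1945 to 4983 in fl/fl, highest in S1, against 1124 to 2545 in Mye-/-. That gap lay in Prtn3, a granule protease, at 2455 ± 1127 and 1117 ± 269.6 without overlap (limma adjusted p = 0.218, DESeq2 adjusted p = 0.0260), since the other 7 markers averaged 847 ± 188 (SD) and 874 ± 315 in sum. Of these, Mpo, Elane, Cd34, Ms4a3 and Ctsg had higher means in Mye-/-, and Kit and Cebpe (542 in fl/fl against 388) had lower ones. By log2 difference Mpo was lower (-1.21). Kit and Elane were at 0 in 6 and 5 of the 9 libraries. Hepatocyte markers were higher in 7 of 7 tested, with sums of 662 to 1888 in fl/fl against 1240 to 11312 in Mye-/- (highest in S10). The 8th, Cyp2e1, was not tested and held reads only in fl/fl S1 (65.0) and S5 (7.91). Kupffer cell markers were higher in 4 of 6 tested, and 3 fl/fl libraries but no Mye-/- library lacked reads of Clec4f, a defining gene of these cells. Cdh5 went the other way, at 149 ± 94.6 and 38.3 ± 45.2, as did Clec1b, at 69.9 ± 29.2 and 48.9 ± 71.1. Timd4 was at 0 in 8 libraries. Neutrophil markers were split, higher in 3 of 6 tested. S100a8 was at 30191 ± 8906 and 17455 ± 6352, and S100a9 at 5906 ± 1444 and 2841 ± 2327. Csf3r went the other way, at 3239 ± 725 and 4390 ± 673. Mmp8 was at 5122 ± 1624 and 5170 ± 1681, and Ly6g was at 0 in 8 libraries. Dendritic cell markers were higher in 3 of 4 tested by log2 difference, but by group means 2 were higher and 2 lower. Flt3 was at 253 ± 178 and 609.9 ± 279.6, and Cd209a also had a higher mean in Mye-/-. Ccr7 went the other way, at 93.9 ± 119 and 60.2 ± 41.2. Zbtb46 had a lower mean in Mye-/- but a log2 difference of 0.24 ± 1.91 (SE). Xcr1 was at 0 in every library. None of these marker genes passed limma's test, and the part of such cells in the differences of the division genes was not tested.

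The median of the replication genes was -0.24 when fl/fl S1 was left out and -0.74 when fl/fl S5 was.

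**Figure D4:**
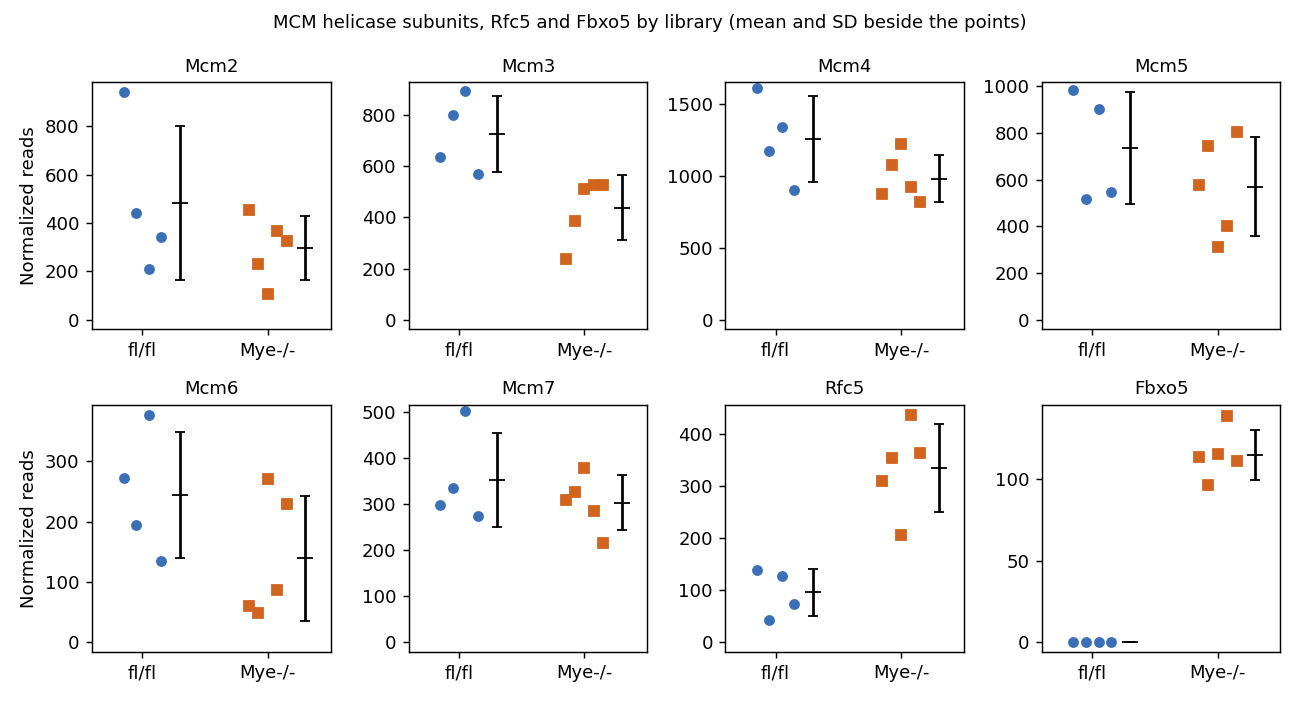
Normalized reads of Mcm2 to Mcm7, Rfc5 and Fbxo5 in each library, with the group mean and SD beside the points. Mcm3 is lower in every Mye-/- library (238 to 527 against 572 to 896), and Rfc5 and Fbxo5 are higher in every Mye-/- library.

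Pcna, the sliding clamp, was the most abundant of the genes per kilobase, and its groups overlapped. It was at 6771, 6866, 5251 and 6107 in fl/fl against 7623, 5845, 6551, 5321 and 5643 in Mye-/-, with a log2 difference of -0.02 ± 0.14 (SE; limma adjusted p = 0.981). Mye-/- S8 was highest and fl/fl S4 lowest, and the values of both groups were interleaved. PCNA is also used in DNA repair. The difference between its change and that of the MCM genes was not tested.

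Genes of nucleotide supply and the E cyclins were low or uneven. Rrm2, the S-phase subunit of ribonucleotide reductase, was at 309.9, 22.7, 488 and 65.9 in fl/fl against 83.2, 104, 165, 100.4 and 39.3 in Mye-/-, so fl/fl libraries held both the highest values and the lowest. Tyms, thymidylate synthase, ran from 0 to 136 and from 33.5 to 87.3, and was the only replication gene higher by log2 difference (1.11 ± 1.32 SE), although its mean was 59.3 in fl/fl against 56.1 in Mye-/-. Its positive difference came with a value of 0 in fl/fl S4. Tk1, thymidine kinase, was at 0 in 2 fl/fl and 3 Mye-/- libraries and at most 88.4. Ccne1, cyclin E1, reached 90.5 in fl/fl against 70.7 in Mye-/-, and Ccne2 was detected only in fl/fl S3 (97.9) and Mye-/- S8 (59.9) and was not tested.

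Mitosis genes were split evenly in direction on the log scale, whereas more of them were lower by group means. Of 23 tested, 11 were lower and 12 higher in log2(normalized reads + 1), with a median of 0.06, beside 0.06 over all features. By group means, 17 of the 23 were lower in Mye-/-, and by DESeq2's model of the reads 17 were lower with a median of -0.33, against 50.2% of all features. The 6 genes whose direction differed between mean and log each had fl/fl libraries at 0. Aurka, a spindle kinase, is an example: it was at 209, 0, 0 and 192 in fl/fl against 76.1, 229.8, 53.4, 41.7 and 88.8 in Mye-/-. Its means were 100.1 and 98.0, yet its log2 difference was 2.53 ± 1.58 (SE; limma adjusted p = 0.591), and with DESeq2 it was -0.03. Several mitosis genes with zeros kept their direction with DESeq2 but had smaller log2 differences than by limma. These were -2.25 against -4.38 for Ube2c, -0.91 against -2.74 for Cenpf and -1.70 against -2.56 for Top2a. They were 2.12 against 3.29 for Cdk1, 2.20 against 3.49 for Cdc20 and 0.72 against 2.41 for Birc5. Ccna2 (-3.26 against -3.02) and Ccnb2 (-1.34 against -0.37) had larger ones.

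Mitosis genes at 0 were unevenly spread over the libraries of both genotypes. Of the 25, the number at 0 was 4, 11, 10 and 2 in fl/fl against 6, 1, 8, 6 and 3 in Mye-/-. The libraries with the most zeros, fl/fl S3 and S4 and Mye-/- S10, had 14696, 14240 and 15614 detected features. The libraries with the fewest zeros, fl/fl S5 and Mye-/- S9, had 16385 and 16802. Between these extremes the order was not kept: fl/fl S1 had 4 zeros with 15547 detected features, and Mye-/- S8 had 6 with 16231. Without fl/fl S3 and S4 the median over the mitosis genes was -1.29, and with a covariate for the count of features detected it was -1.03. Both of these settings were made after the data were seen, and the first leaves 2 fl/fl libraries. The sum over the mitosis genes other than the Plk1 feature was 2878, 1781, 2760.1 and 3491 in fl/fl against 2054, 2579, 2336, 1880.0 and 1620.2 in Mye-/-.

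**Figure D5:**
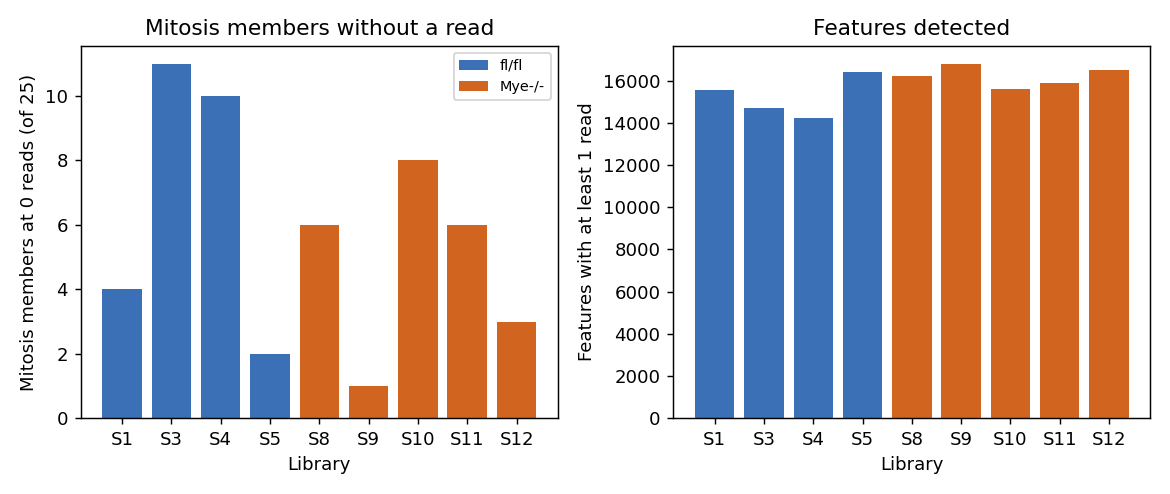
Number of the 25 mitosis genes at 0 reads (left) and number of features with at least 1 read (right) in each library, fl/fl in blue and Mye-/- in orange. Libraries fl/fl S3 and S4 hold the most zeros, 11 and 10, and the fewest detected features.

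Among proliferation markers, Mki67 (chromosome 7, 135689784 to 135716418, mm10) was at 123, 232, 75.1 and 200.3 in fl/fl against 92.3, 101, 163, 41.7 and 45.3 in Mye-/-. Every library held reads of it, and the lowest were Mye-/- S11 and S12. Its log2 difference was -0.88 ± 0.72 (SE; limma adjusted p = 0.704). Within the Mki67 feature lies another without a gene symbol, at a mean of 95.9. Top2a, the topoisomerase that untangles sister chromatids, was at 309, 82.4, 54.1 and 122 in fl/fl against 99.4, 81.1, 0, 27.8 and 11.1 in Mye-/- (-2.56 ± 1.30 SE; limma adjusted p = 0.50). Its feature reaches into Rara, beyond the Top2a gene of GENCODE, so its reads cannot all be assigned to Top2a.

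Of the cyclins and CDK1, Cdk1, the mitotic kinase, was at 13.9, 0, 0 and 47.4 in fl/fl against 34.5, 40.2, 191, 40.6 and 27.3 in Mye-/- (3.29 ± 1.49 SE; limma unadjusted p = 0.0402, adjusted p = 0.455). Its highest library was Mye-/- S10, and the groups overlapped through fl/fl S5. Its partners did not share that direction in the mean. Ccna2, cyclin A2, averaged 75.4 in fl/fl against 7.85 in Mye-/-, Ccnb2, cyclin B2, averaged 120.3 and 47.6, and Ccnb1, at 0 in 6 of 9 libraries, averaged 26.2 and 1.93 and was not tested. Ccna2 overlaps Exosc9 on the opposite strand, at a mean of 838, and their reads cannot be told apart there without strand.

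The APC/C genes differed in sign, and neither passed the test. Ube2c, its ubiquitin-conjugating enzyme, was at 179, 47.8, 139 and 66.8 in fl/fl against 0, 93.2, 0, 0 and 20.5 in Mye-/-. All fl/fl libraries and only Mye-/- S9 and S12 held reads, giving -4.38 ± 1.59 (SE; limma unadjusted p = 0.0130, adjusted p = 0.339). Cdc20, its activator at anaphase, was at 0, 0, 0 and 56.2 in fl/fl against 30.4, 0, 129, 83.3 and 80.3 in Mye-/- (3.49 ± 1.85 SE; limma adjusted p = 0.525). The Cdc20 feature overlaps that of Elovl1, on the opposite strand, only from 118432901 to 118432922, and reads there cannot be told apart without strand. Elovl1 was at 1426 ± 242 and 1433 ± 321, and at 1196 to 1743 in the 4 libraries where Cdc20 was at 0.

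Spindle and checkpoint kinases overlapped between genotypes. Aurkb, the kinase of the chromosomal passenger complex, was at 172, 210.1, 814 and 412 in fl/fl against 426, 183, 558, 314 and 274 in Mye-/- (-0.02 ± 0.48 SE). Bub1b, the checkpoint kinase BubR1, was at 241, 316, 139.7 and 275 in fl/fl against 191, 448, 204, 135 and 138 in Mye-/- (-0.21 ± 0.51 SE). Both genes were detected in every library, and the spread within each group exceeded the difference. Of the passenger subunits, Cdca8 (borealin) ran from 129 to 170.2 in fl/fl and from 20.9 to 197 in Mye-/-. Birc5 (survivin) was at 114, 62.1, 0 and 0 in fl/fl against 140.0, 28.1, 151, 29.9 and 13.7 in Mye-/- (2.41 ± 1.60 SE). Bub1, a kinetochore kinase, was at 0 in fl/fl S3 and S4 and between 18.3 and 209 elsewhere. The feature of Plk1 and Dctn5 was at 3579, 6169, 3805 and 4036 in fl/fl against 4196, 4376, 4997, 4706 and 5044 in Mye-/- (0.12 ± 0.16 SE), with fl/fl S3 highest.

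Motors and spindle proteins also overlapped between genotypes. Kif23, a kinesin of the central spindle, was at 302, 339, 678 and 479 in fl/fl against 294, 766, 409, 385 and 486 in Mye-/- (0.06 ± 0.36 SE), again with full overlap. Kif11, the motor that separates spindle poles, reached 260.0 in fl/fl S5 and 166 in Mye-/- S10. Kif20a was at 0 in 2 libraries of each group and at most 99.6. Cenpf, a kinetochore protein, was at 20.9, 112, 126 and 105 in fl/fl against 179, 25.7, 39.0, 0 and 0 in Mye-/- (-2.74 ± 1.56 SE), so its highest and its lowest values were all in Mye-/-. Cenpe, the kinetochore motor, averaged 93.3 and 80.4. Cdca3, a trigger of mitotic entry, was at 174, 0, 0 and 77.3 in fl/fl against 64.9, 61.9, 56.0, 25.6 and 11.1 in Mye-/- (1.80 ± 1.63 SE, although its mean was lower in Mye-/-). The microtubule-associated proteins Tpx2, Nusap1 and Prc1 averaged 84.7, 55.6 and 59.1 in fl/fl against 36.9, 8.74 and 49.4 in Mye-/-. Hmmr, another such protein, held reads in 1 fl/fl and 2 Mye-/- libraries and was not tested.

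The abundant chromatin and tubulin genes had lower means in Mye-/-, with overlap. Hmgb2, a DNA-bending chromatin protein, was at 8238, 9160.1, 7521 and 6744 in fl/fl against 7392, 7333, 6749, 6527 and 5756 in Mye-/- (-0.23 ± 0.13 SE; limma adjusted p = 0.566). Tubb5, a beta-tubulin, was at 11693, 7459, 10738 and 7891 in fl/fl against 6237, 7469.8, 8209.6, 8822 and 8669.9 in Mye-/- (-0.25 ± 0.16 SE; limma adjusted p = 0.603). In both genes the highest libraries were fl/fl, with overlap through the lower fl/fl libraries. Stmn1, which destabilises microtubules, was at 331, 112, 177 and 541 in fl/fl against 216, 215, 136, 90.8 and 180.2 in Mye-/- (-0.61 ± 0.56 SE). Its difference was -0.23 without fl/fl S5, its highest library, and -0.98 without fl/fl S3.

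Further genes of the same machinery gave no call by limma. Of 48 further replication genes 45 were tested, of which 29 were lower and 16 higher (median -0.10). Of 51 further mitosis genes found, 41 were tested, of which 23 were lower and 18 higher (median -0.13). By DESeq2, 1 gene of each list was called, against 0.621% of features called as higher, and both were higher in Mye-/-.

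These were Fbxo5 and Rfc5. Fbxo5 (chromosome 10, 5799160 to 5805465, mm10) encodes EMI1, the inhibitor that holds back the APC/C during S and G2 phase. It was at 0 in all 4 fl/fl libraries and at 114, 96.4, 115, 139 and 111 normalized reads in Mye-/-, from 112 to 136 reads per library. In Mye-/-, Fbxo5 averaged 37.4 times a floor of 3 reads per fl/fl library, an assumed level that sets no lower bound. It passed the filter on low values only through its Mye-/- libraries, so its p-values are given as a description and do not support the difference: the limma adjusted p was 0.0832, the DESeq2 adjusted p 4.67e-08, and the range over the alternatives 4.67e-08 to 0.976. Of all features tested, 19 (0.124%) were at 0 in every fl/fl library and above 0 in every Mye-/- library, and 0 showed the opposite pattern. These counts cannot be compared, because the filter treats the patterns unequally. The opposite pattern needs at least 10 normalized reads in all 4 fl/fl libraries, the first in any 4 of 5 Mye-/- libraries. At this level other division genes, such as Aurka, were at 0 in some libraries and over 100 in others.

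Rfc5, a subunit of the loader of PCNA, was at 139, 41.8, 127 and 73.8 in fl/fl against 310.5, 353, 207, 437 and 364 in Mye-/-. All Mye-/- libraries lay above all fl/fl libraries, with a log2 difference of 1.90 ± 0.54 (SE; limma adjusted p = 0.253, DESeq2 adjusted p = 0.0385). Rfc2, another subunit of the same loader and named after its values were seen, separated the other way: it was at 1645, 1477, 1189.8 and 1430.2 in fl/fl against 981, 1127, 1076, 990.2 and 1174 in Mye-/- (-0.42 ± 0.19 SE; limma unadjusted p = 0.0379, adjusted p = 0.452). Wsb2, which overlaps Rfc5 on the opposite strand, was at 1343 ± 507 and 973 ± 342, a lower mean in Mye-/-. Neither of the other 2 replication genes named by p was called. Pold2, a subunit of polymerase delta, averaged 367 ± 65.7 (SD, n = 4) and 187 ± 84.7 (SD, n = 5; limma adjusted p = 0.438), and Cdc7, the kinase that fires origins, was at 0 in 3 fl/fl libraries and at 30.4 to 134 in Mye-/- (adjusted p = 0.333). Among mitosis genes the next by p were Cenpm, a centromere protein at 27.9 at most in fl/fl against 70.0 at most in Mye-/-, and Smc4, a condensin subunit at 860.2 ± 219.6 and 1116 ± 255 (limma adjusted p = 0.520 and 0.602).

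Upstream regulators did not pass the test in either direction. Of all features tested, 54.6% were higher in Mye-/-, with a median log2 difference of 0.06. Of 26 G1 cyclins, kinases and brakes found, 23 were tested, 16 higher and 7 lower, with a median log2 difference of 0.23 and 0 called. Btg2, an antiproliferative factor, was at 26806 ± 5438 in fl/fl against 34094 ± 3785 in Mye-/- (limma adjusted p = 0.408). Cdk2, the partner of cyclins E and A, was at 551 ± 222 and 865 ± 115 (adjusted p = 0.396). Of 24 transcription factors of the division programme, 21 were tested, 12 higher and 9 lower (median 0.13). Rb1, the retinoblastoma brake on E2F, was at 2285 ± 802 and 3124 ± 487, Myc at 741 ± 428 and 1009 ± 182, and Tfdp2, an E2F partner, at 37.9 ± 41.0 and 107 ± 57.7 (limma adjusted p = 0.405, 0.523 and 0.485). None of these differences passed the test.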

How the data were processed

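The deposited signal values are per feature of the FAST DB annotation on mm10, per the file headers. STAR 2.4.0 and DESeq are named in the submitters' processing notes. From the values, they are read counts divided by 1 factor per library, with no log or length correction. No counting tool or strand setting is named in the sources used here: overlapping and antisense genes cannot be separated. Each nonzero value was a whole multiple of 1 unit per library (100%, within 0.01 reads), which gave back whole reads. Low counts were mostly even numbers, so that 1 molecule may give more than 1 read.

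Differences in log2(normalized reads + 1) were tested with limma 3.58.1 in R 4.3.3, allowing an intensity trend, 5 Mye-/- against 4 fl/fl libraries, two-sided, with Benjamini-Hochberg adjustment over the 15288 features with at least 10 in at least 4 libraries, at 0.05. The filter ignores genotype, but a gene read in 1 group alone can pass it. edgeR 4.0.16 and DESeq2 1.42.0 were run on the recovered reads. Scripts were tested on simulated data. No label says that each library came from a separate mouse, so p-values measure the spread between these libraries. No batch was labelled.

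The members and gene lists were chosen with earlier results of these data known. Values in every library are given for Mki67, Top2a, the 5 replication and 5 mitosis genes with the highest mean, the 3 chromatin and tubulin genes, up to 5 genes per direction with the smallest p, and members whose groups did not overlap. From each further list up to 3 genes with the smallest p are named. Some genes that this rule names are not reported here. Other members and Rfc2, the markers and overlapping genes were named to account for all genes or for a value beside a result. Alternatives were other pseudocounts, filters, scalings, tools, age and left-out libraries.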

Additional observations from a re-analysis of the deposited data

Results flagged for a closer look

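In 9 cases among the named genes the highest library of a group lay far above its neighbours, by Dixon's criterion for groups of 4 or 5. For normally distributed values chance flags about 1 in 20 groups, and 65 groups were examined. Many of these groups hold low counts and zeros, and a group with 1 nonzero value is always flagged. That rate therefore does not apply here, and no excess can be read from the number of flags. In Mye-/- S9, Bub1b was at 448, Aurka at 229.8, Ube2c at 93.2 and Cdc7 at 134, against at most 204, 88.8, 20.5 and 56.4 in the other Mye-/- libraries. Mye-/- S9 also had the most detected features. Cdk1 stood at 191 in Mye-/- S10 (next 40.6) and Cenpf at 179 in Mye-/- S8 (next 39.0). In fl/fl, Cdc20 and Cdc7 were at 56.2 and 62.4 in S5 and Cenpm at 27.9 in S1, each with the other 3 fl/fl libraries at 0.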

How the results depend on the processing

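The count of division genes called was 0 under all 26 alternatives. The count of all features called was 3, and was 17 with a pseudocount of 8 or 50, 6 with TMM scaling, 8 with quantile normalization or limma-voom, 21 without an intensity trend, 9 with a robust fit, 5 with array weights or without fl/fl S3 and S4, 146 with DESeq2, and 0 with a covariate for age or for features detected, or in 11-week-old mice alone. Leaving out each library in turn gave 0 (Mye-/- S8 or S10) to 20 (fl/fl S5). Replication genes had a median below 0 in every alternative (-0.74 to -0.24). The mitosis median was -0.28 to 0.14 with libraries left out in turn, -1.03 with the covariate for features detected and -1.29 without fl/fl S3 and S4, and lay below 0 in 12 of 27 settings. All 6 MCM genes were lower in 24 of 26 alternatives. In the other 2, Mcm7 was higher (0.13 with that covariate, 0.06 without fl/fl S3 and S4). In the same 2 settings the differences of Mcm3, Mcm4 and Mcm6 were smaller in size than in the main fit (Mcm6 -0.39 and -0.80). Those of Mcm2 and Mcm5 were larger (Mcm2 -1.07 and -1.09). Fbxo5 passed with a pseudocount of 8 or 50, without an intensity trend and with DESeq2, and Rfc5 passed with DESeq2. Directions that turned were those of Pcna (0.0011 with quantile normalization, 0.078 with age or 11-week-old mice, -0.10 to 0.036 with libraries left out), Kif23 (-0.17 with age or 11-week-old mice, -0.14 to 0.28 with libraries left out), Aurkb (0.0423 with age or 11-week-old mice, 0.49 with detected features, 0.30 without fl/fl S3 and S4, -0.34 to 0.41 with libraries left out), Aurka (-0.0298 with edgeR, -0.0348 with DESeq2, -1.03 with detected features, -1.29 without fl/fl S3 and S4) and Cdca3 (-0.0116 with a pseudocount of 50, -0.52 with edgeR or DESeq2, -0.825 with detected features, -1.64 without fl/fl S3 and S4). Where these turned, the cause was not tested. No paired analysis was possible because the groups share no replicate numbers. Leaving out 1 library moved the log2 difference by over 1.5 times for 14 of the 21 members named with their values in every library. What depth limits in genes under 100 normalized reads was not tested: fl/fl S1, with the fewest reads (33383559), had 4 mitosis genes at 0, and fl/fl S4, with 42824761, had 10.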
